A study of Rattus norvegicus with 12 samples.

Results

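The transcripts described here are 7 genes of the thyroid and parathyroid glands, which lie against the rat larynx, measured array by array in specimens of laryngeal muscle. They were chosen by gene symbol, with earlier results of these data known. Pth, Gcm2, Casr, Chga, Tg, Tshr and Calca were all present on the array, each with 1 probe set, among 14329 genes with a single symbol. The question was which single specimens carried gland transcripts, and whether those of the thyroid and those of the parathyroid came together.

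The 12 arrays held RNA of male F344 rats killed 1 week after neck surgery under ketamine and xylazine. In the injury groups the recurrent laryngeal nerve was cut on 1 side and a piece of it was taken out, and in the control groups the nerve was reached in the same way and left whole. The muscle was the posterior cricoarytenoid (PCA), the abductor of the vocal folds, or the laryngeal adductors taken as one complex (AC). The groups were PCA injury, PCA control, AC injury and AC control, with 3 arrays each. The labels name 10 animals for each kind of surgery and give no age. They do not say whether an array stands for 1 animal or a pool, or whether both muscles of an animal were used, and the p-values below therefore reflect only how much these arrays scatter, a scatter that may be technical. Every specimen was a piece of whole tissue, in which fewer cells of a type and less RNA per cell cannot be told apart.

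The thyroid consists of follicles whose cells secrete thyroglobulin and make thyroid hormone from it under the control of thyrotropin. Between the follicles lie C cells, which secrete calcitonin. The parathyroid glands sit on or inside the thyroid, and their chief cells release parathyroid hormone when the calcium-sensing receptor detects low blood calcium. Chief cells and C cells store their peptides in dense-core granules, which hold chromogranin A. Neither gland is part of the muscles studied here.

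All 12 arrays carried muscle RNA: the mean of 7 skeletal muscle markers lay between 12.02 and 13.01 log2. A pair of injured arrays lay nearer the other muscle than their labels say. Over 14329 genes, with each value taken as its deviation from the mean of the injured arrays, the library labelled PCA injury 3 correlated at 0.318 with AC injury 1 and 0.314 with AC injury 3, but at -0.526 with PCA injury 1 and -0.419 with PCA injury 2. The library labelled AC injury 2 correlated at 0.247 with PCA injury 1 and 0.133 with PCA injury 2, but at -0.313 with AC injury 1 and -0.55 with AC injury 3. Such deviations sum to 0 for each gene, which by itself pulls correlations below 0, and the PCA injury 1 and PCA injury 2 arrays correlated at only -0.048 with each other. The labels were kept, and results that rest on these arrays are also given without them. Markers of other tissues differed between groups as well: the adipocyte mean was 7.31 to 7.93 log2 in PCA injury, against 8.54 to 8.97 in PCA control, and the cartilage mean was 8.62 to 9.07 in PCA injury, against 10.07 to 10.84 in PCA control.

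The promoters of both peptide hormone genes, Pth of chief cells and Calca of C cells, are shown because these genes mark the gland cell types that the specimens may hold. Each is 300 bases from RefSeq on GRCr8, minus strand, with 250 bases before the start of the gene and 50 after it: Pth at chr1:176945985-176946284 and Calca at chr1:178317480-178317779. Capitals mark TGACG, the core of the cyclic AMP response element, searched on both strands.
Pth: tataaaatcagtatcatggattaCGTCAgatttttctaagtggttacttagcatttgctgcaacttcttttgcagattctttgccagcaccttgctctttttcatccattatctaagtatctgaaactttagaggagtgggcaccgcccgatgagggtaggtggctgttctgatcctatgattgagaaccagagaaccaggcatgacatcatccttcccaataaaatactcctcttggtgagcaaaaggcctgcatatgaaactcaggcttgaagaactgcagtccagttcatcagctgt
Calca: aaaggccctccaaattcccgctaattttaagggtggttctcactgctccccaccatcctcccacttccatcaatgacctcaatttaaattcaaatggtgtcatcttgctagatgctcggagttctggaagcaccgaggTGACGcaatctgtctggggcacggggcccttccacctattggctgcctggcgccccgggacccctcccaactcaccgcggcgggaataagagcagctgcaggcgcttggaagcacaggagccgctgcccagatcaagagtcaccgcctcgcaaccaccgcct
Each held 1 match, 227 bases before the start and on the strand opposite to the gene for Pth, and 112 bases before the start and on the strand of the gene for Calca. The same letters occur in 7097 of 33469 rat promoters of this length, or 21.2%, so a match here is a description of the sequence and no more. Of the 7 genes, 3 had a promoter in the table used (Pth, Calca and Casr).

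Pth, which encodes parathyroid hormone, was high on 3 arrays and intermediate on 1. It read 7.90, 13.29 and 5.38 log2 on PCA injury 1, 2 and 3, against 13.45, 5.06 and 5.12 on PCA control 1, 2 and 3. It read 5.44, 12.69 and 5.57 on AC injury 1, 2 and 3, against 5.05, 4.92 and 4.6 on AC control 1, 2 and 3. PCA injury 2, PCA control 1 and AC injury 2 thus lay more than 7 log2 above the highest of the 8 low arrays, and PCA injury 1 lay 2.33 above it. The 8 low arrays spanned 4.6 to 5.57.

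An array was said to stand apart for a gene where its value lay more than 1 log2 above the median of that gene over the 12 arrays. By that line Pth stood apart on 4 arrays, and 22 of all 84 values of the 7 genes did. All 7 genes stood apart on PCA injury 2, where 0.81% of all genes did, and on PCA control 1, where 1.25% of all genes did. On AC injury 2, 5 of 7 stood apart, against 0.419% of all genes. On PCA injury 1, Tg and Pth stood apart, against 1.01% of all genes, and on PCA control 3, 1 of 7 did, Tg, against 0.495%. On PCA injury 3 (0.3% of all genes) and PCA control 2 (0.328%) 0 of 7 stood apart. The same 0 of 7 was counted on AC injury 1 (0.202%), AC injury 3 (0.377%) and AC control 1, 2 and 3 (0.579%, 0.335% and 0.147%). The values nearest the line were both on AC injury 2, Casr at 1.085 inside it and Tshr at 0.995 outside.

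**Figure D1:**
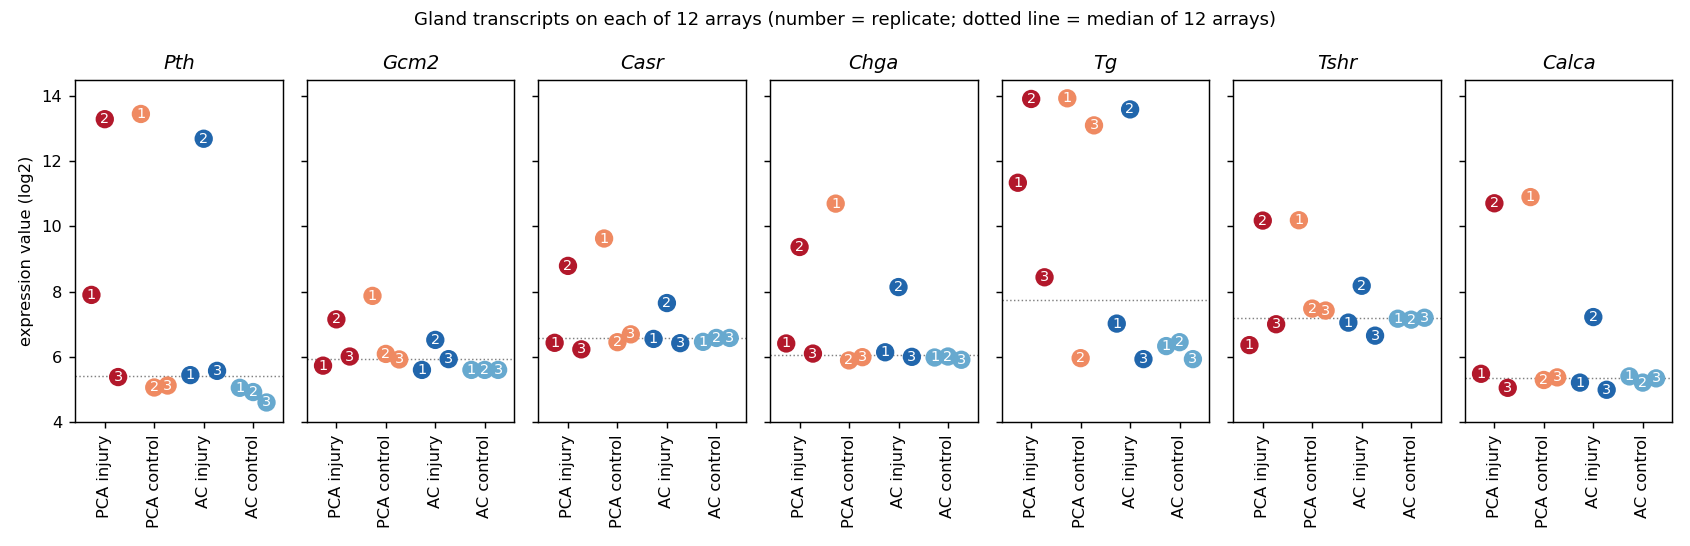
Each numbered point is the log2 value of 1 gene on 1 array (the number is the replicate), with the 4 groups side by side and the median of the gene as a dotted line, for Pth, Gcm2, Casr, Chga, Tg, Tshr and Calca. PCA injury 2 and PCA control 1 are highest for all 7 genes, and Tg is high on PCA control 3 as well, at 13.10.

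The other parathyroid genes were high on fewer arrays than Pth. Gcm2, the transcription factor that specifies the parathyroid, read 5.73, 7.15 and 6.01 log2 on PCA injury 1, 2 and 3, against 7.87, 6.09 and 5.92 on PCA control 1, 2 and 3. On AC injury 1, 2 and 3 it read 5.60, 6.52 and 5.93, against 5.60 on each of the 3 AC controls. It stood apart on 2 arrays, PCA injury 2 and PCA control 1. AC injury 2 was 0.60 above the median of the gene, short of the line, and was the third highest array. The equal values of 5.60 on 4 arrays were the lowest of the gene.

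Casr, the calcium-sensing receptor, is found on chief cells and also on C cells. It read 6.43, 8.79 and 6.23 log2 on PCA injury 1, 2 and 3, against 9.63, 6.45 and 6.69 on PCA control 1, 2 and 3. It read 6.55, 7.65 and 6.42 on AC injury 1, 2 and 3, against 6.46, 6.58 and 6.58 on AC control 1, 2 and 3. The same 3 arrays were highest, and PCA injury 1, intermediate for Pth, lay within the 6.23 to 6.69 of the low arrays.

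Chga, chromogranin A, is made by many endocrine cells. It read 6.41, 9.37 and 6.10 log2 on PCA injury 1, 2 and 3, against 10.70, 5.89 and 5.99 on PCA control 1, 2 and 3. It read 6.14, 8.14 and 6.0 on AC injury 1, 2 and 3, against 5.98, 6.01 and 5.91 on AC control 1, 2 and 3. The 8 low arrays spanned only 0.25 log2, and PCA injury 1 lay 0.27 above the highest of them.

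Tg, which encodes thyroglobulin, varied in another way from the parathyroid genes. It read 11.34, 13.91 and 8.44 log2 on PCA injury 1, 2 and 3, against 13.93, 5.96 and 13.10 on PCA control 1, 2 and 3. It read 7.02, 13.59 and 5.93 on AC injury 1, 2 and 3, against 6.33, 6.45 and 5.93 on AC control 1, 2 and 3. Tg stood apart on 5 arrays, and the array that Pth lacked was PCA control 3, where Pth read 5.12. PCA injury 3, at 8.44, and AC injury 1, at 7.02, lay above all 3 AC controls without standing apart. The median of Tg over the 12 arrays, 7.73, itself lay above every AC control. The count of 0 of 7 on PCA injury 3 therefore does not show that Tg was absent there. PCA control 2 was the PCA array with the lowest Tg, and its 5.96 lay within the range of the AC controls. On PCA injury 2 and PCA control 1, Tg lay 0.01 and 0.11 log2 below the highest value of any probe set of the array, so the scale left little room above it.

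**Figure D2:**
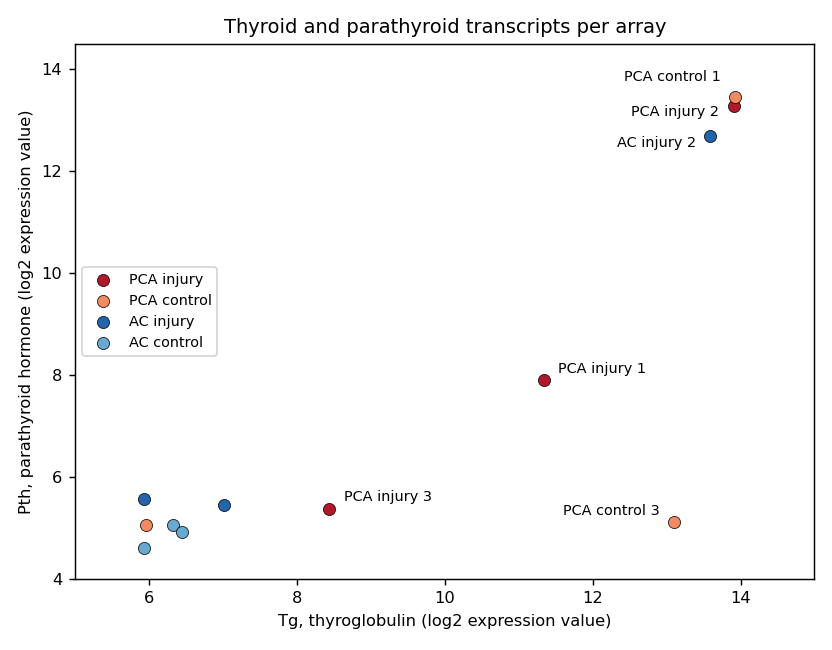
Each point is 1 array, with Tg on one axis and Pth on the other, both in log2, coloured by group. PCA injury 2, PCA control 1 and AC injury 2 are high for both, PCA control 3 is high for Tg alone (13.10, with Pth at 5.12), and PCA injury 1 is intermediate for Pth at 7.90.

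Tshr, the thyrotropin receptor of follicular cells, read 6.36, 10.18 and 7.0 log2 on PCA injury 1, 2 and 3, against 10.19, 7.48 and 7.42 on PCA control 1, 2 and 3. It read 7.05, 8.18 and 6.65 on AC injury 1, 2 and 3, against 7.17, 7.14 and 7.2 on AC control 1, 2 and 3. Tshr stood apart on PCA injury 2 and PCA control 1. It was at its lowest, 6.36, on PCA injury 1, where Tg was 11.34. Fat cells also express this receptor. The adipocyte mean of PCA injury 1 was 7.31 log2, against 8.54 to 8.97 in PCA control, but AC controls had similar adipocyte means of 7.31 to 7.43 with Tshr at 7.14 to 7.2, and the part of fat cells in the Tshr values was not tested.

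Calca, which encodes calcitonin in C cells and the peptide CGRP in sensory and motor neurons, read 5.48, 10.71 and 5.05 log2 on PCA injury 1, 2 and 3, against 10.90, 5.29 and 5.37 on PCA control 1, 2 and 3. It read 5.21, 7.22 and 4.99 on AC injury 1, 2 and 3, against 5.40, 5.21 and 5.34 on AC control 1, 2 and 3. It was high on the arrays that were high for Pth, except PCA injury 1, which lay 0.08 above the highest of the 8 low arrays. Of 7 measured neuron markers, 0 stood apart on any array, and their mean spanned 5.45 to 5.74 log2. The part of either cell type in the Calca values was not tested.

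Within groups, these genes were among the most variable of the arrays. The residual SD of the 4-group fit was 3.77 log2 for Pth, the largest of 14329 genes, 3.31 for Tg, the second, and 2.33 for Calca, the third. Chga ranked 8 (1.75), Tshr 20 (1.35), Casr 30 (1.19) and Gcm2 142 (0.698), where the median of all genes was 0.134. Together with listed gland genes outside the 7, they made up 9 of the 20 genes with the largest spread. The 7 genes and the lists were chosen with earlier results of these data known, so these ranks are descriptions.

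Lists of markers of the gland cell types were counted with the 7 genes included, so likeness to the counts above is partly built in. Of 15 measured follicular markers, 10 stood apart on PCA injury 2 and 10 on PCA control 1, 5 on AC injury 2, 4 on PCA control 3 and 1 on PCA injury 1. The 4 on PCA control 3 were Tg, Pax8, a transcription factor of follicular cells, at 1.51 log2 above its median, Dio1, a deiodinase, at 1.5, and Slc26a7, an iodide transporter, at 1.24. Of 6 parathyroid markers, 4 stood apart on PCA injury 2 and 4 on PCA control 1 (Pth, Gcm2, Casr and the Fgf23 co-receptor Kl), 2 on AC injury 2, 1 on PCA injury 1 and 0 on PCA control 3. Of 6 C cell markers, Calca and Sst, somatostatin, stood apart on PCA injury 2 and PCA control 1, and Calca alone on AC injury 2. Of 7 granule genes, 5 stood apart on PCA injury 2, 6 on PCA control 1, and Chga alone on AC injury 2. Outside the 7 genes, 8 of 13 follicular markers stood apart on PCA injury 2 and 8 on PCA control 1. The count was 4 on AC injury 2, 3 on PCA control 3 and 0 on PCA injury 1. Of 3 parathyroid markers outside the 7, 1 stood apart on PCA injury 2, 1 on PCA control 1 and 0 on AC injury 2. On AC injury 2, 0 of 5 C cell and 0 of 6 granule genes outside the 7 did. Duox2, an oxidase that airway epithelium also expresses, was the 1 follicular marker apart on AC injury 1. On PCA injury 3, PCA control 2, AC injury 3 and the AC controls 0 markers of these lists stood apart. Thymus and lymphocyte markers, 6 measured, stood apart on 0 arrays.

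**Figure D3:**
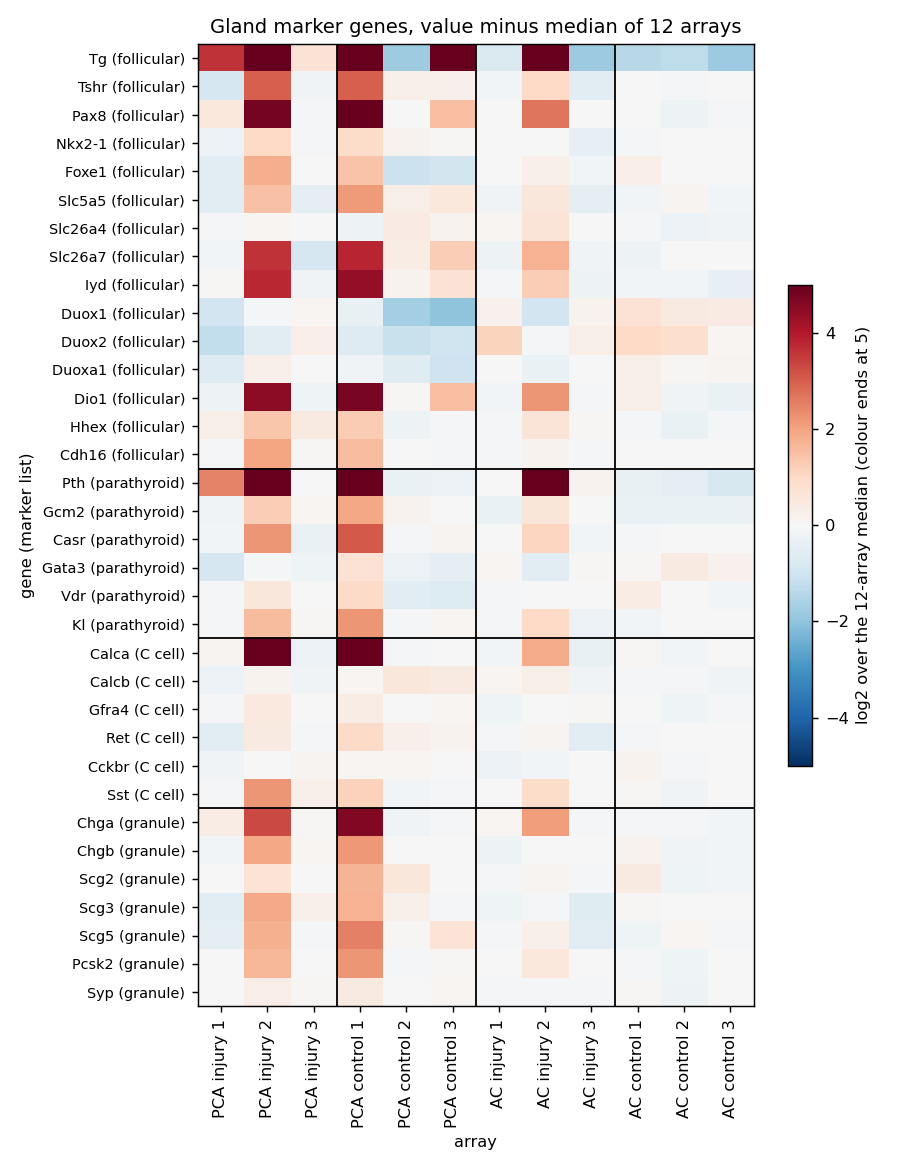
Rows are marker genes grouped by gland cell type, columns are the 12 arrays, and colour is log2 value minus the median of the gene over the arrays, ending at 5. Columns PCA injury 2 and PCA control 1 have markers apart in all gland lists, and AC injury 2 has fewer. Not all markers are high there: Duox1 (-0.095 and -0.385) and Duox2 (-0.55 and -0.64) lie below their medians on PCA injury 2 and PCA control 1. Of 6 C cell markers, 2 stand apart on each of these columns. PCA control 3 is high for Tg, Pax8, Dio1 and Slc26a7 with 0 of 6 parathyroid markers apart.

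To set arrays against each other without setting one probe set against another, the excess of each gene over its median was taken on the linear scale and given as a percent of its own excess on PCA control 1. On PCA injury 2 the excess of Tg was 98.6%, of Tshr 99.2%, of Pth 89.5% and of Calca 87.4%. The excess of Casr was 49.9% there, of Gcm2 46.9% and of Chga 37.3%. Tg and Pth lay near the top of the scale on both arrays, which may limit their ratio. Of the other genes, Tshr and Calca had the largest shares, while Casr, Gcm2 and Chga had 50% or less. Over the 8 of 13 follicular markers outside the 7 that were apart on PCA control 1, the median was 85.5% (52.8% to 154%). Markers not apart there were given no percent, so these shares do not stand for the full lists. Kl, the 1 of 3 parathyroid markers outside the 7 that was apart there, had 53.8%. The others, Vdr and Gata3, lay at 0.55 and -0.055 log2 from their medians on PCA injury 2. Sst, the 1 of 5 C cell markers outside the 7 that was apart there, had 304%, unlike Calca. Calcb, Gfra4, Ret and Cckbr lay at 0.18, 0.5, 0.44 and 0.0 log2 from their medians on PCA injury 2.

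On AC injury 2 the order was another. The excess of Tg was 78.7% and of Pth 58.9% of that on PCA control 1. Tg lay 0.22 and Pth 1.12 log2 below the highest value of any probe set of AC injury 2. Gcm2 had 17.9%, Casr 15.2%, Tshr 14.1%, Chga 13.5% and Calca 5.78%. Leaving out Tg and Pth, the parathyroid members lay within 4 percentage points of Tshr. The 8 other follicular markers apart on PCA control 1 had a median of 14.1% (6.72% to 40.9%), and Kl had 26.9%. The follicular markers not apart there lay on both sides of their medians on AC injury 2. Duox1 lay at -0.975, Duoxa1 at -0.32, Duox2 at -0.08, Nkx2-1 at 0.015 and Slc26a4 at 0.66 log2. Of the parathyroid markers not apart there, Vdr lay at -0.01 and Gata3 at -0.565.

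On PCA control 3 the excess was in Tg and, at a much lower share, in some other follicular genes and 1 granule gene. Tg had 55.6% of its excess on PCA control 1, Tshr 2.52%, and the 8 other follicular markers apart on PCA control 1 a median of 4.46% (-27.7% to 13.5%). Pth had -0.0695%, Gcm2 -0.121%, Casr 1.23%, Chga -0.183% and Calca 0.0229%. The granule gene Scg5 had 13%, close to Slc5a5, the highest of those 8 follicular markers, at 13.5%. On PCA injury 1, Tg had 15.5% and Pth 1.76%. These are descriptions of single arrays, with no replicate and no test. Values near the top of the scale may be compressed, which was not tested here.

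**Figure D4:**
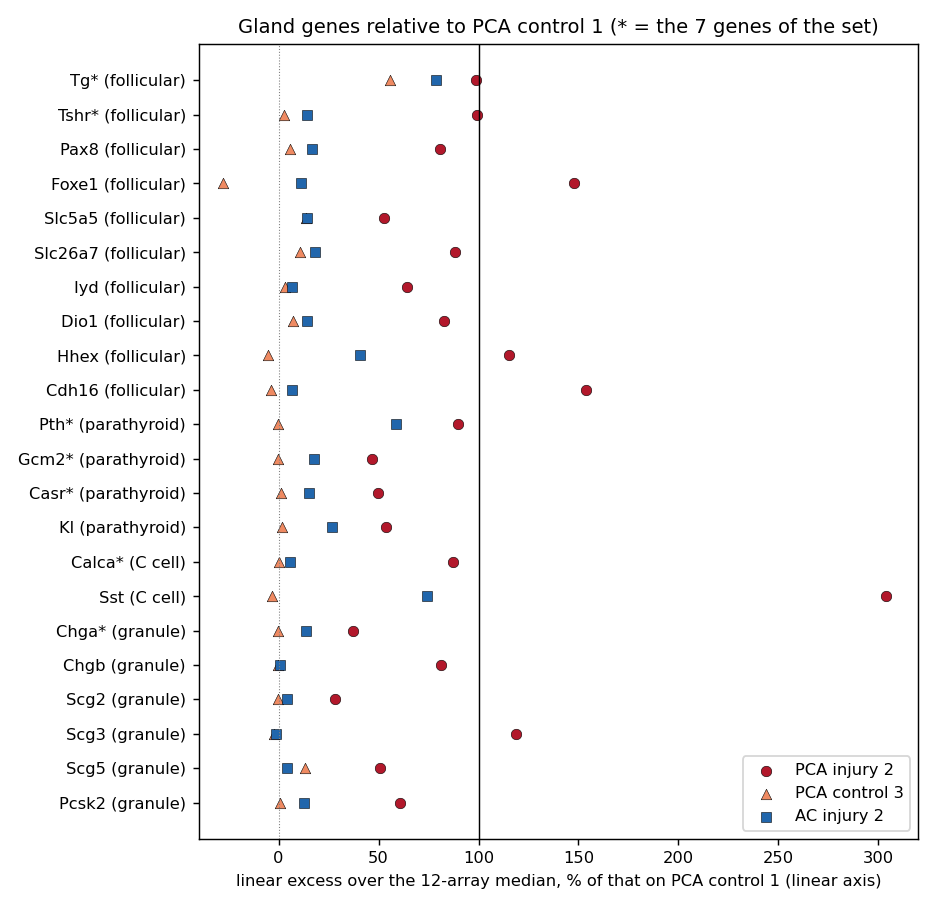
Points give, for the 7 genes (starred) and the listed gland markers that stood apart on PCA control 1, the linear excess over the median on PCA injury 2, PCA control 3 and AC injury 2, as a percent of that on PCA control 1 (line at 100%). PCA control 3 has Tg at 55.6% and the other starred genes near 0%, and the C cell marker Sst is the farthest right, at 304% on PCA injury 2.

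A single number for parathyroid against thyroid did not hold its direction on every array. The median log2 excess of Pth, Gcm2 and Casr minus that of Tg and Tshr was -1.53 on PCA injury 1, -2.36 on PCA injury 2, -1.54 on PCA control 1 and -2.34 on AC injury 2. On PCA control 3, the array with Tg and without Pth, it was -2.81. With the median of the same muscle as base it was 0.845 on PCA injury 1, 0.01 on PCA injury 2 and 0.835 on PCA control 1, and it stayed below 0 on PCA control 3 (-0.56) and AC injury 2 (-3.03). The log2 excess of Tg may itself be limited by the top of the scale.

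The level of the 7 genes was not shown to follow nerve injury in either muscle. In order of the group means, Pth averaged 8.86 ± 4.04 in PCA injury, 7.90 ± 4.15 in AC injury, 7.88 ± 4.83 in PCA control and 4.86 ± 0.23 in AC control (log2, SD, n = 3 each). Tg averaged 11.23 ± 2.74 in PCA injury, 11.0 ± 4.38 in PCA control, 8.85 ± 4.14 in AC injury and 6.24 ± 0.27 in AC control. AC control had the lowest mean for all 7 genes, and PCA control the highest for Gcm2 (6.63 ± 1.08), Casr (7.59 ± 1.77), Chga (7.53 ± 2.75), Tshr (8.36 ± 1.58) and Calca (7.19 ± 3.22). In each gene, every gap between neighbouring group means was smaller than the SD of the higher group.

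For injury in the PCA, limma with Benjamini-Hochberg adjustment over all genes called 0 of 7, where 25.8% of all genes were called, and 0 of 7 passed at an unadjusted p under 0.05, where 36.9% of all genes did. Pth was 0.98 ± 2.61 log2 higher (SE, limma adjusted p = 0.831), with a 95% interval of -4.76 to 6.72. Tg was 0.23 ± 2.29 higher (limma adjusted p = 0.958; interval -4.81 to 5.27). The other 5 genes differed by -0.52 to -0.11, and the median of the 7 was -0.233, against -0.027 over all genes. The intervals of Pth and Tg span large differences in either direction, so the test does not show that these genes stayed equal. Of the 7 genes, 0 had groups that did not overlap, where 37% of all genes did.

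For injury in the AC, limma called 0 of 7, where 1.91% of all genes were called, and again 0 of 7 passed at an unadjusted p under 0.05, where 20.3% of all genes did. Pth was 3.04 ± 2.61 log2 higher (limma adjusted p = 0.564; interval -2.69 to 8.78) and Tg 2.61 ± 2.29 higher (limma adjusted p = 0.575; interval -2.43 to 7.65). Both differences rested on AC injury 2: without it and PCA injury 3, Pth differed by 0.65 and Tg by 0.24. All 3 injured arrays lay above all 3 controls for Pth, the 1 of 7 whose groups did not overlap, where 28.4% of all genes had such groups. The median of the 7 was 0.49, against 0.017 over all genes.

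The difference between the injury effects of AC and PCA was past the threshold for 0 of 7 (limma adjusted p = 0.642 to 0.931), where 0.154% of all genes were called, and 0 of 7 passed at an unadjusted p under 0.05, where 15.7% of all genes did. Gland marker lists did not pass either: of 15 follicular, 6 parathyroid, 6 C cell and 7 granule genes, 0 were called by limma for injury in the PCA and 0 in the AC. At an unadjusted p under 0.05, 1 follicular and 1 C cell gene passed in the PCA and 1 follicular gene in the AC, smaller shares of these lists than the 36.9% of all genes in the PCA and 20.3% in the AC.

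**Figure D5:**
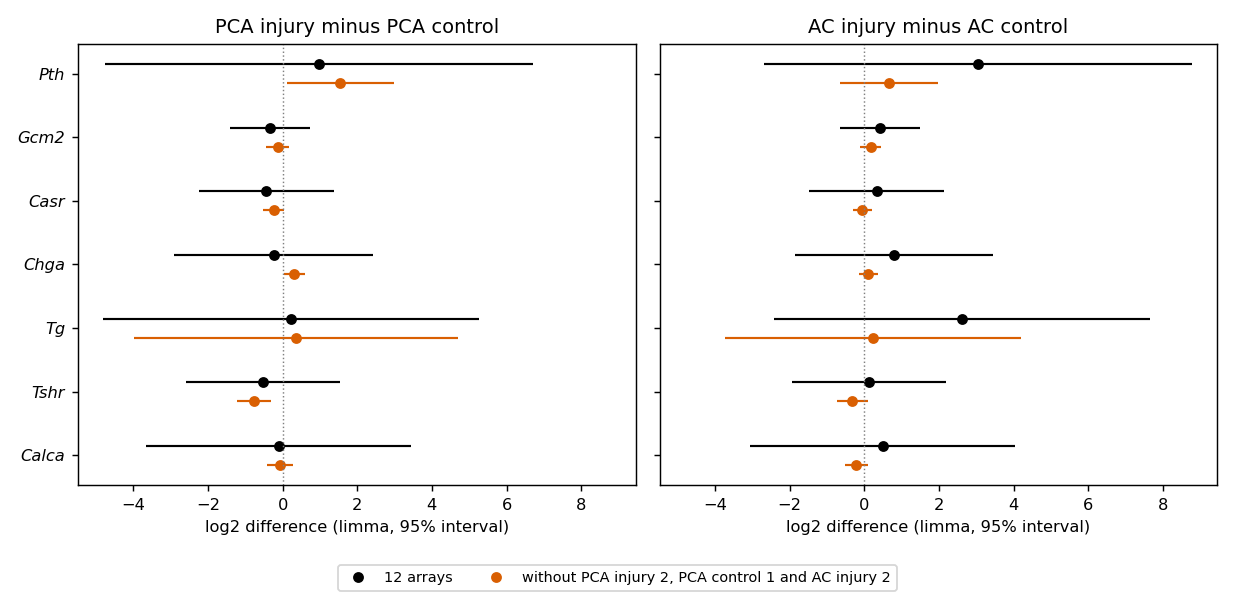
Points are log2 differences, injury minus control, for each gene in the PCA (left) and in the AC (right), and bars are 95% intervals of the limma fit, on 12 arrays in black and without PCA injury 2, PCA control 1 and AC injury 2 in orange. All black intervals include 0, the widest being those of Pth (-4.76 to 6.72 in the PCA), and most orange intervals are far narrower, except those of Tg. In the PCA the orange intervals of Pth (0.11 to 2.99), Chga (0.04 to 0.59) and Tshr (-1.23 to -0.31) lie off 0, after arrays were left out for high values of these genes.

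Gland genes stood apart on more PCA than AC arrays, but with all arrays kept limma called 0 of the 7 genes between the muscles. Casr, Chga and Calca stood apart on PCA injury 2, PCA control 1 and AC injury 2, and Pth on PCA injury 1 as well. Gcm2 and Tshr did so on PCA injury 2 and PCA control 1. On PCA injury 3 and PCA control 2, 0 of the 7 genes stood apart. Tg stood apart on 2 PCA injury arrays and 2 PCA control arrays, against 1 AC injury array and 0 AC control arrays, and that AC array was the one whose profile lay nearer the injured PCA arrays. That profile took in all genes, these 7 among them, so the likeness is not independent of the gland transcripts. In controls, Tg was 4.76 ± 2.29 log2 higher in PCA than in AC (limma adjusted p = 0.213) and Gcm2 1.03 ± 0.49 higher (limma adjusted p = 0.206). Of the 7 genes, 0 were called by limma in controls, where 10.6% of all genes were, and 0 passed at an unadjusted p under 0.05, where 26.6% of all genes did. Pth, Gcm2 and Tshr, 3 of 7, were higher in all PCA than in all AC controls, where 33.7% of all genes had groups that did not overlap. For Pth the lowest PCA control read 5.06 log2, against 5.05 on the highest AC control. For Gcm2 every AC control read 5.60, the lowest value of the gene. The count is therefore not read as a difference between the muscles. The Tg difference depended on PCA control 2: without that array, the PCA control lowest in Tg, it was 7.28 ± 2.02 (limma adjusted p = 0.0485), 1 of 7 called where 9.94% of all genes were. Leaving out the lowest PCA control raises this difference by construction, so the value is given as a description. No other single array left out gave a call among the 7 genes.

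In injured animals limma called 0 of the 7 genes between PCA and AC (adjusted p = 0.999 for each), where 0% of all genes were called and 517 of 14329 (3.61%) passed at an unadjusted p under 0.05, with 0 of the 7 among them. Groups that did not overlap were found for 0 of 7, where 6.48% of all genes had them. Without PCA injury 3 and AC injury 2, Tg was 6.15 ± 2.16 log2 higher in PCA injury than in AC injury (limma adjusted p = 0.257) and Pth 5.09 ± 2.59 higher (limma adjusted p = 0.423). For both genes the arrays left out were the lowest of PCA injury and the highest of AC injury, which widens the difference by construction. The values left were 11.34 and 13.91 on PCA injury 1 and 2, against 7.02 and 5.93 on AC injury 1 and 3, for Tg. For Pth they were 7.90 and 13.29, against 5.44 and 5.57.

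Leaving out the 3 arrays highest in these transcripts (PCA injury 2, PCA control 1 and AC injury 2) selects arrays on the values tested and shrinks the spread of these genes by construction, so the values left are given as a description. For injury in the PCA, limma then called 1 of 7, Tshr, where 16.3% of all genes were called. Tshr kept 6.36 and 7.0 log2 on PCA injury 1 and 3, against 7.48 and 7.42 on PCA control 2 and 3, a difference of -0.77 ± 0.20 (SE, limma adjusted p = 0.0357). Over all 12 arrays it was -0.52 ± 0.94 (limma adjusted p = 0.745). Pth then differed by 1.55 ± 0.63, with 7.90 and 5.38 left on PCA injury 1 and 3, Chga by 0.32 ± 0.12, and Tg by 0.36 ± 1.90 (limma adjusted p = 0.131, 0.11 and 0.929). Pth, Chga and Tshr, 3 of 7, passed at an unadjusted p under 0.05, where 31.9% of all genes did. Over all 12 arrays, limma called 7 of 8 adipocyte markers lower in PCA injury, where 25.8% of all genes were called in either direction. Among them were Adipoq (-1.51 ± 0.30, limma adjusted p = 0.00481) and Plin1 (-1.49 ± 0.26, limma adjusted p = 0.0022). Their relation to the Tshr difference was not tested.

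The genes most like Pth over the 12 arrays were found by scaling each profile to its own range and taking the mean absolute difference, among 2685 genes with a range of at least 1 log2. The nearest 8 were Vnn1 (0.092), Slc4a5 (0.093), Pax8 (0.095), Kcnip3 (0.096), Calca (0.098), St6galnac2 (0.103), Ptgs1 (0.104) and Mt3 (0.105). A follicular transcription factor, Pax8, and a C cell gene, Calca, were thus nearer to Pth than Gcm2 (0.14) or Casr (0.121) was. Pth lay 0.63, 0.59 and 1.12 log2 below the highest value of PCA injury 2, PCA control 1 and AC injury 2. Gcm2 read its lowest value, 5.60, on AC injury 1 and every AC control. The part of these limits of the scale in the order of distances was not tested. Pax8 read 6.64, 10.90 and 6.01 log2 on PCA injury 1, 2 and 3, against 11.20, 6.12 and 7.63 on PCA control 1, 2 and 3. It read 6.11, 8.81 and 6.10 on AC injury 1, 2 and 3, against 6.12, 5.86 and 6.01 on AC control 1, 2 and 3.

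Tg had fewer close neighbours. Pth was nearest, at 0.138, followed by Pax8 (0.176), Slc4a5 (0.177), Pnldc1 (0.178), Vnn1 (0.18), Adamts9 (0.181), Plppr3 (0.184) and Morn4 (0.188). Among the 7 genes the closest profiles were those of Casr and Calca (0.05), Casr and Chga (0.054) and Chga and Calca (0.054), while Tg lay 0.138 to 0.249 from the other 6. All of these values share the same few high arrays, and no p-value is attached to them.

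On each of the 3 highest arrays, Pth had the largest lead of any named gene over the highest of 8 other arrays. Those 8 were the arrays with fewer than 2 of the 7 genes apart. High places of these genes are therefore partly built in, and the leads are descriptions. PCA control 3, with Tg at 13.10, was among the 8, which keeps the lead of Tg small by construction. The lead was 7.72 log2 on PCA injury 2, 7.88 on PCA control 1 and 7.12 on AC injury 2. Calca followed on PCA injury 2 (5.31) and PCA control 1 (5.50), ahead of the sodium bicarbonate cotransporter Slc4a5 (3.42 and 3.70), Pax8 (3.27 and 3.57), the iodotyrosine deiodinase Iyd (3.06 and 3.66), Cryba2 (3.03 and 3.97) and Dio1 (2.99 and 3.25). Chga led by 3.23 and 4.56, and Tshr by 2.70 on PCA injury 2. The 10 largest leads also held Cacng5 on PCA injury 2 (2.6) and Gng7 (2.98) and Casr (2.94) on PCA control 1. On AC injury 2, Chga (2.00), Calca (1.82), Cryba2 (1.79), Slc4a5 (1.41) and Pax8 (1.18) were joined by the inflammatory genes Cxcl13 (1.52), Cxcl6 (1.31), Nos2 (1.15) and Il6 (1.13). On PCA injury 1 the lead of Pth was 2.33, and the 9 genes after it, Cxcl13 (1.11) and Slc11a1 (1.08) first, held no gland marker.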

How the data were processed

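The deposited table holds log2 values, 1 for each probe set on each array. No source names the log base; 2 was assumed because the values run from 2.57 to 14.04. RMA and Partek are named, per the submitters' processing notes, with no version or role; for the background step and annotation, details were not given in the sources used here. RMA usually includes quantile normalisation, so a value is relative to the other genes of its array. Precision is limited by the number of arrays. Array medians lay between 7.11 and 7.17.

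Of 27342 probe sets, 15103 had 1 gene symbol in the platform annotation, 317 several and 11922 none. Only the first kind entered gene tests. Names were checked against RefSeq (GRCr8, where 15067 matched and 36 did not), and where a gene had more than 1 probe set (500 genes) the one of highest mean was kept, leaving 14329 genes. Each of the 7 genes had 1 probe set. No coordinates are given for probe sets.

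Group means of the 4 groups were fitted by limma (3.58.1, under R 4.3.3; lmFit, then eBayes) on the 12 arrays and all genes, dim ones included, with 8 residual and 3.14 prior degrees of freedom. Two-sided p-values were adjusted by Benjamini-Hochberg across the 14329 genes, and 0.05 was the threshold. The fit was tested on simulated data. Levels on single arrays, linear excess and nearest profiles are descriptions. The text names the 7 genes, the 8 genes nearest to Pth and to Tg, the 10 with the largest lead on each array with at least 2 members apart, and members of the marker lists. Amy1 and the other genes named only in the closing observations were picked with their values already seen. The 7 genes, lists and alternatives were chosen with earlier results of these data known. Alternatives covered replicate blocks, dim genes, probe set choice, centring, the groups fitted, the prior, array weights, bases for the excess and left-out arrays. Leaving out the 4 arrays with at least 2 members apart, or PCA injury 3 and AC injury 2, was chosen after seeing the data. Python 3.11.15 with matplotlib 3.10.9 drew the figures.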

Additional observations from a re-analysis of the deposited data

How the results depend on the processing

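Of the 7 genes, 0 were called by limma in any of the 5 comparisons under all alternatives except 2: 1 (Tshr) for injury in the PCA without PCA injury 2, PCA control 1 and AC injury 2, and 0 to 1 (Tg) for PCA against AC in controls with single arrays left out. With single arrays left out, log2 differences for injury in the PCA spanned -1.24 to 3.77 for Pth, -0.76 to 0.29 for Gcm2, -1.26 to 0.58 for Casr, -1.27 to 1.35 for Chga, -2.29 to 1.70 for Tg, -1.68 to 0.40 for Tshr and -1.92 to 1.75 for Calca. For injury in the AC they spanned 0.65 to 4.27 for Pth, 0.17 to 0.63 for Gcm2, -0.055 to 0.56 for Casr, 0.10 to 1.17 for Chga, 0.24 to 4.07 for Tg, -0.32 to 0.45 for Tshr and -0.22 to 0.90 for Calca. Array weights turned the PCA difference for Calca (1.80), Casr (0.45), Chga (1.03), Gcm2 (0.19) and Tshr (0.58). Without PCA injury 3 and AC injury 2 it turned for Calca (0.91), Casr (0.02) and Chga (0.36). Without the 3 highest arrays it turned for Chga (0.32), and without all 4 arrays with at least 2 members apart, which leaves 1 injured PCA array assumed to vary like the other groups, for Chga (0.16), Gcm2 (0.005) and Tg (-1.09). All 3 of these omissions turned the AC difference for Calca (-0.22), Casr (-0.055) and Tshr (-0.32). The cause of these turns was not tested beyond the arrays left out.

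Counts over all genes moved more. Injury in the PCA gave 2257 genes with the 2 groups fitted alone, 2335 without the 3 highest arrays, 1394 without 4, and 2466 to 3558 with 1 array left out. Injury in the AC gave 619 with the 2 groups alone, 703 with array weights, 10 without the 3 highest arrays, 70 without PCA injury 3 and AC injury 2, and 13 to 663 with 1 array left out. The difference of effects gave 35 without dim genes, 348 with array weights, 0 without the 3, the 4, or PCA injury 3 and AC injury 2, and 0 to 406 with 1 left out; fitting only the 2 groups gives it no value. PCA against AC gave 2626 with array weights, 812 without the 3 highest arrays and 714 to 1813 with 1 left out in controls, and 38 without PCA injury 3 and AC injury 2 in injured animals, where leaving out 1 array gave 0 to 0. The replicate numbers do not pair the arrays (correlations of same-numbered deviations -0.393 to 0.339, 1 of 12 arrays nearest its own number), and the replicate block gave 59 genes for injury in the AC and 0 for the difference of effects without changing a call of the 7 genes. Parathyroid minus follicular members turned with the same-muscle median as base on PCA injury 1 (0.845), PCA injury 2 (0.01) and PCA control 1 (0.835). With all listed markers it was 0.13 on PCA injury 1, -0.41 on PCA injury 2, 0.54 on PCA control 1 and 0.14 on AC injury 2. Tg on PCA injury 1 lay -0.88 from the PCA median. Ranked by Pearson correlation, 5 of the 8 genes nearest to Pth and 6 of those nearest to Tg were shared.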

Other observations

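Among the 20 genes with the largest spread within groups, those outside the gland lists fell into a few patterns, and they are given as values. Amy1, an amylase of exocrine glands, read 4.29, 5.44 and 9.73 log2 on PCA injury 1, 2 and 3, against 4.51, 4.71 and 4.96 on PCA control 1, 2 and 3. It read 9.14, 4.38 and 9.01 on AC injury 1, 2 and 3, against 8.15, 10.92 and 8.77 on AC control 1, 2 and 3. PCA injury 3 thus lay in the range of AC, and AC injury 2, the AC array with gland transcripts, in the range of PCA. Mcpt1, a protease of mast cells, was lowest on AC injury 2 (7.31), PCA injury 1 (7.34), PCA injury 2 (7.56) and PCA control 1 (8.49), against 10.12 to 11.38 on the other 8 arrays, PCA injury 3 among them (10.75).

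Cornified envelope and keratin genes had their lowest values on PCA control 1 and 3. Stfa3, a cystatin of squamous epithelium, read 11.05, 11.84 and 11.84 log2 on PCA injury 1, 2 and 3, against 6.76, 11.04 and 3.84 on PCA control 1, 2 and 3. Krt13, a keratin of the same epithelium, read 12.48, 13.01 and 12.94 on PCA injury, against 9.09, 12.13 and 6.58 on PCA control. PCA control 1 and 3 were also the PCA control arrays with Tg at 13.93 and 13.10, while PCA control 2 had Tg at 5.96. PCA injury 2, with Tg at 13.91, had Krt13 at 13.01, so low squamous genes and high Tg did not go together on every array. Cryba2, a crystallin gene, read 10.22 on PCA injury 2, 11.16 on PCA control 1 and 8.98 on AC injury 2, against 6.67 to 7.19 on the other 9 arrays.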
